A study of Mus musculus with 8 samples.

Results

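The replication-dependent histone genes were taken as every gene whose symbol begins with Hist1h, Hist2h, Hist3h or Hist4h, which gave 70 of the 34199 genes counted. By the letters of the symbol, 6 encode linker histones of type H1, 20 encode H2A, 19 encode H2B, 12 encode H3 and 13 encode H4. In the mm9 annotation 56 of them lie on chromosome 13, 10 on chromosome 3, 3 on chromosome 11 and 1 on chromosome 6, and 67 are protein-coding and 3 are pseudogenes (Hist1h2aj, Hist2h3c2 and Hist3h2bb-ps). RNA was sequenced from mouse granulocyte-macrophage progenitors of the C57Bl/6 strain that carry a Lys-GFP reporter and are immortalised by HOXA9 fused to the ligand-binding domain of a mutant estrogen receptor (iGMPs), so that HOXA9 is active only with estradiol. There were 4 groups of 2 libraries each. Uninduced cells (0 h) grew with 150 ng/ml estradiol and no IPTG. CAF-1 OFF cells received 500 µM IPTG for 48 h, with estradiol, to induce their shRNA against Chaf1b. Cells of the IPTG-treated control had IPTG for 48 h, with estradiol, and the labels do not say which vector they carry. HOXA9 OFF cells were kept for 48 h without estradiol. The lines are clonal, stem cell factor was present throughout, and the labels do not say what a replicate is. The study's supplement mentions RNA-seq of independent sub-clones, but not whether the replicates are these. The p-values thus measure only the spread between these libraries, which may be technical.

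Replication-dependent histone genes supply the core and linker histones that package newly copied DNA, and they are transcribed mainly in S phase. Their mRNAs are the exception among animal mRNAs: most have no introns and end not in a poly(A) tail but just after a short stem-loop, which is bound by the stem-loop binding protein SLBP and cleaved with the help of the U7 small nuclear ribonucleoprotein. Some of these genes also have a poly(A) signal further downstream, and polyadenylated forms are known in cells that leave the cycle. A library that captures RNA by its poly(A) tail sees mainly these forms. CAF-1, of which CHAF1B is a subunit, is the chaperone that places H3 and H4 onto DNA behind the replication fork.

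The stem-loop is shown here for 9 genes because it is the feature that sets this family apart and because its letters separate H4 from the other types. Each line gives 26 bases of mm9, read 5′ to 3′ on the strand of the gene, and the capitals mark the 16 bases of the stem-loop.
Hist1h1c, chr13:23831376-23831401, plus strand: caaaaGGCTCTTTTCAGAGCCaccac
Hist1h2ag, chr13:22134347-22134372, minus strand: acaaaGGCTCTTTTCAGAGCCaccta
Hist3h2a, chr11:58768669-58768694, plus strand: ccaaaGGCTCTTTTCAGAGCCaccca
Hist1h2bc, chr13:23776511-23776536, plus strand: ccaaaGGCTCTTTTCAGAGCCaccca
Hist1h3a, chr13:23853754-23853779, minus strand: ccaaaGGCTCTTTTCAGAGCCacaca
Hist2h3c1, chr3:96051245-96051270, plus strand: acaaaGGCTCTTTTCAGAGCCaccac
Hist1h4d, chr13:23673814-23673839, plus strand: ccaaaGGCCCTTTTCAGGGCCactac
Hist1h4i, chr13:22132830-22132855, minus strand: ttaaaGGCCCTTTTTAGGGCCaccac
Hist1h4b, chr13:23849230-23849255, plus strand: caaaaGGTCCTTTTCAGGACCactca

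Of the 67 protein-coding histone genes, 61 (91.0%) held an exact stem-loop within 300 bases after the stop codon, against 3 of 21735 other protein-coding genes (0.014%), namely Btbd10, H2afx and 1700014N06Rik. The element began 21 to 58 bases after the stop codon, with a median of 31. The form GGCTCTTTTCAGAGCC stood in 37 genes, 5 of H1, 15 of H2A, 10 of H2B and 7 of H3, and in none of H4. The form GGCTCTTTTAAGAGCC stood in 9 genes of the same 4 types. The H4 genes held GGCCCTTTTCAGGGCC in 8 cases, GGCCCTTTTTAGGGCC in 2 and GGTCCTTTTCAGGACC in 2. The stem-loop of Hist1h2an had 1 mismatch, and 5 genes had more, among them Hist2h2be with 4 mismatches. 

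The annotated transcript ends divided the same genes. Only 17 of the 67 (25.4%) carried AATAAA or ATTAAA in the last 50 bases of the annotated transcript, against 68.5% of 21736 other genes. Hist1h1c, Hist2h2be, Hist1h4i, Hist1h2bc, Hist3h2a and Hist2h3c1 were among the 17. The annotated transcript ran past the stem-loop by 150 bases in Hist1h4i, 839 in Hist1h1c, 1166 in Hist2h3c1 and 1487 in Hist3h2a. In Hist1h2bc the annotated transcript is spliced and ends 7826 bases past the stem-loop, which lies outside its exons. These are features of the annotation, and which end was used in these cells was not tested.

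Total gene counts were between 14044284 and 22423837 per library, and the 70 histone genes took 1014 to 2740 of them, or 58.6 to 151 per 1000000. A count of 3 corresponded to 0.128 to 0.212 CPM, the level used below, which is counts per 1000000 after TMM scaling of the library sizes. Chaf1b, the targeted gene, was at 96.8 and 100 CPM in the uninduced libraries, 95.1 and 102 in the IPTG-treated control, 18.7 and 9.72 in CAF-1 OFF and 48.3 and 41.0 in HOXA9 OFF. A single library stood apart. In IPTG-treated control replicate 1, 14.6% of reads lay outside any gene, against 5.30% to 7.79% in the others, and 14 other RNAs without a poly(A) tail (7SK, spliceosomal and nucleolar RNAs, ribosomal 5.8S RNA and the like) summed to 169 CPM, against 13.8 to 38.2 in the others. Several results that rest on it are given with and without it, and others only with it.

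**Figure D1:**
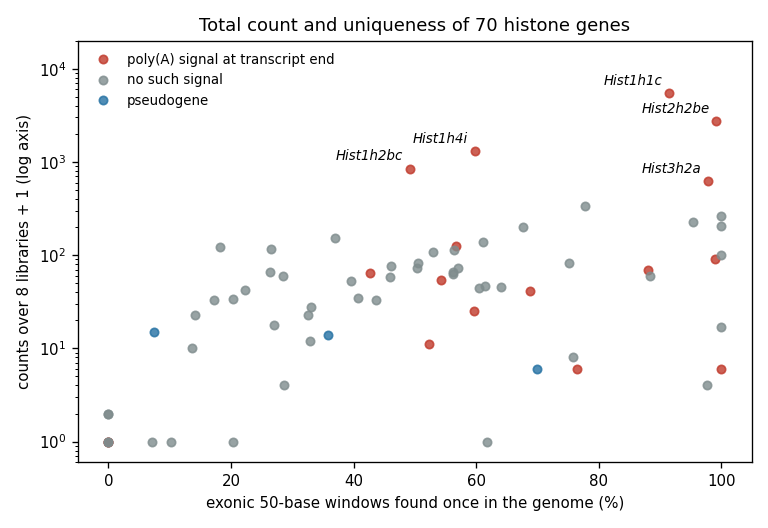
Counts summed over 8 libraries (plus 1, log axis) against the percent of exonic 50-base windows of each histone gene that occur once in the mm9 genome, 1 point per gene, coloured by the annotated transcript end. The 5 named genes lie above the rest and all carry a poly(A) signal.

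A few genes made up most of the histone signal. Hist1h1c, Hist2h2be, Hist1h4i, Hist1h2bc and Hist3h2a together took 74.2% of all histone counts, and the 17 genes with a poly(A) signal took 77.4%. By type, H1 took 44.0%, H2B 28.3%, H4 14.1%, H2A 9.05% and H3 4.57%. These shares differed between libraries. The 5 genes took 37.6% in IPTG-treated control replicate 1 and 59.6% to 88.6% in the others, and the genes with a signal took 43.3% there and 63.3% to 90.8% in the others. H1 took 32.6% to 56.3%, and in CAF-1 OFF replicate 1 it was below H2B, at 32.6% against 35.6%. Per kilobase of exon and averaged over all 8 libraries, Hist1h1c stood at 22.9 CPM, Hist1h4i at 15.8, Hist1h2bc at 7.41 and Hist2h2be at 6.79. These 4 were also the highest, at 23.5, 16.7, 8 and 6.96 CPM per kilobase, without IPTG-treated control replicate 1, an average chosen after seeing the data. The order below them rested on that library. Without it Hist1h4d was at 2.79, Hist3h2a at 2.10, Hist1h2bj at 1.84 and Hist1h1e at 1.68 CPM per kilobase, where all 8 libraries gave 3.57, 2.02, 2.24 and 3.43. As a mean of all 8 libraries no H3 gene exceeded 1.17 CPM per kilobase, and without that library none exceeded 0.954.

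Of the 70 genes, 32 passed the filter on low counts and were tested (5 of H1, 8 of H2A, 6 of H2B, 6 of H3 and 7 of H4). Of the 38 others, 30 had 1 to 71 counts over all 8 libraries, and 8 were at 0 in every library: Hist1h2ba, Hist1h2bq, Hist1h2br, Hist1h4m, Hist1h4n, Hist2h2aa1, Hist2h2aa2 and Hist2h3b. The 38 held 4.82% of the histone counts. Among them were Hist1h1t, the H1 of male germ cells, with 5 counts, Hist1h2aa with 3 and Hist1h2ba, the H2B of male germ cells, with 0. Near-identical copies limit what could be counted: 6 genes have no exonic window of 50 bases that occurs once in the genome (Hist1h2ao, Hist1h2ap, Hist1h2bq, Hist1h2br, Hist2h2aa1 and Hist2h2aa2), and 4 of the 8 genes at 0 are among these. Nearly all windows of Hist1h1c (91.5%), Hist2h2be (99.2%) and Hist3h2a (97.8%) are unique, though part of Hist3h2a overlaps another gene. Hist1h4i (59.8%), Hist1h2bc (49.2%) and Hist1h2ag (18.2%) can be counted only in part.

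**Figure D2:**
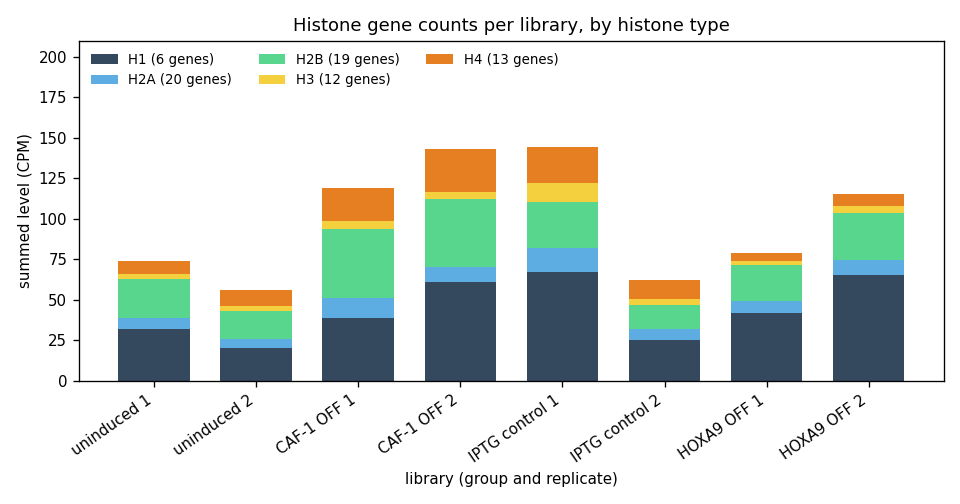
Summed level (CPM) of the histone genes in each of the 8 libraries, stacked by histone type. The CAF-1 OFF libraries and IPTG-treated control replicate 1 reach 119 to 144 CPM, and the uninduced libraries 73.9 and 56.2.

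How histone RNA differs 48 h after induction of the Chaf1b shRNA was asked by setting CAF-1 OFF against uninduced cells. The 70 genes together were at 73.9 and 56.2 CPM in the uninduced libraries and at 119 and 143 in CAF-1 OFF, with means of 65.1 ± 12.5 and 131 ± 17.4 CPM (SD, n = 2). The groups did not overlap and the ratio of the means was 2.01. H4 had the largest ratio of the 5 types, from 9.32 ± 1.41 to 23.4 ± 4.34 CPM, and H2B went from 20.7 ± 4.71 to 42.3 ± 0.128. H1 went from 25.8 ± 8.16 to 49.8 ± 15.7, H2A from 6.16 ± 0.913 to 10.7 ± 2.43, and H3 from 3.14 ± 0.15 to 4.80 ± 0.283 CPM (SD, n = 2). Single genes made up most of some sums, Hist1h1c that of H1 (means of 23.1 and 46.6 CPM) and Hist1h4i that of H4 (6.07 and 17.2). These sums were not tested. In bulk samples fewer cells of a type and less RNA per cell cannot be told apart.

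Hist1h4i, Hist1h2bc and Hist2h2be were higher in CAF-1 OFF than in uninduced cells. That is 3 of 32 tested genes (9.38%), where 10.5% of all 13080 genes tested were higher, so the share called was close to that of all genes. None was lower, where 3.50% of all genes were. A call needed an FDR (the Benjamini-Hochberg adjusted p of edgeR's quasi-likelihood test over all tested genes) under 0.05 together with a 1.5-fold or larger change. In either direction 14.0% of all genes were called.

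Hist1h4i, a gene for histone H4, was at 5.16 and 6.97 CPM in the uninduced libraries, 15.2 and 19.2 in CAF-1 OFF, 5.02 and 6.50 in the IPTG-treated control and 3.8 and 5.85 in HOXA9 OFF. Both CAF-1 OFF libraries were above the 6 others, which overlapped. The log2 fold change over uninduced cells was 1.5 (SE 0.29, FDR 0.0151).

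Hist1h2bc, a gene for histone H2B, showed 3.83 and 3.29 CPM in the uninduced libraries, 9.48 and 12.2 in CAF-1 OFF, 2.40 and 3.07 in the IPTG-treated control and 3.31 and 6.05 in HOXA9 OFF. Here too the CAF-1 OFF libraries were the highest. Its log2 fold change over uninduced cells was 1.60 (SE 0.34, FDR 0.0184).

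Hist2h2be, also a gene for H2B, with 4 mismatches in its stem-loop, was at 16.3 and 11.2 CPM in the uninduced libraries, 28.0 and 26.0 in CAF-1 OFF, 14.6 and 8.34 in the IPTG-treated control and 17.5 and 20.3 in HOXA9 OFF. The CAF-1 OFF libraries were again above the others, with HOXA9 OFF next. The log2 fold change of CAF-1 OFF over uninduced cells was 0.97 (SE 0.29, FDR 0.0486).

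A pair of abundant genes missed the threshold in this comparison. Hist1h1c, the linker histone H1.2 gene, was at 28.7 and 17.5 CPM in the uninduced libraries, 35.2 and 58.1 in CAF-1 OFF, 29.4 and 17.4 in the IPTG-treated control and 40 and 60.2 in HOXA9 OFF. Its log2 fold change in CAF-1 OFF was 1.01 (SE 0.37, FDR 0.0906), and it was called by DESeq2 (FDR 0.0236) and with no filter on low counts (FDR 0.0482). Hist3h2a, an H2A gene of the small cluster on chromosome 11, was at 3.20 and 2.40 CPM in the uninduced libraries, 6.42 and 4.70 in CAF-1 OFF, 2.83 and 1.78 in the IPTG-treated control and 5.16 and 5.65 in HOXA9 OFF. Its value was 0.99 (SE 0.32, FDR 0.0671), and 35.6% of its exonic bases overlap Trim17 on the same strand, so that its count is uncertain. In both genes the CAF-1 OFF libraries lay above the uninduced ones without overlap.

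Over the 32 tested genes the median log2 difference was 0.80, with 29 above 0, where the median of all tested genes was 0.01. The groups did not overlap, with CAF-1 OFF higher, in 20 of the 32 (62.5%), where 35.3% of all genes were so placed, and CAF-1 OFF was lower in 1 (3.12%, against 33.0%). That gene was Hist1h1d, at 0.890 and 0.642 CPM in the uninduced libraries and 0.474 and 0.261 in CAF-1 OFF (log2 fold change -1.05, SE 0.86, FDR 0.417). The 10 tested genes with a poly(A) signal had a median of 1.21 and the 22 without one a median of 0.57. A gene of low count is tested only where it reaches the minimum count in enough libraries, so these medians describe the tested genes and not all 70. Without the CAF-1 OFF libraries 5 of the 32, among them Hist1h3a, would not have reached it, and 2 of these 5 are among the 20 genes above.

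The calls rested on small margins. Without uninduced replicate 1, without uninduced replicate 2 or without CAF-1 OFF replicate 2 none of the 3 genes was called, with FDR up to 0.128 for Hist1h2bc, 0.114 for Hist1h4i and 0.204 for Hist2h2be, which was also lost without CAF-1 OFF replicate 1, though the log2 fold changes stayed between 0.72 and 1.75 over all alternatives.

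**Figure D3:**
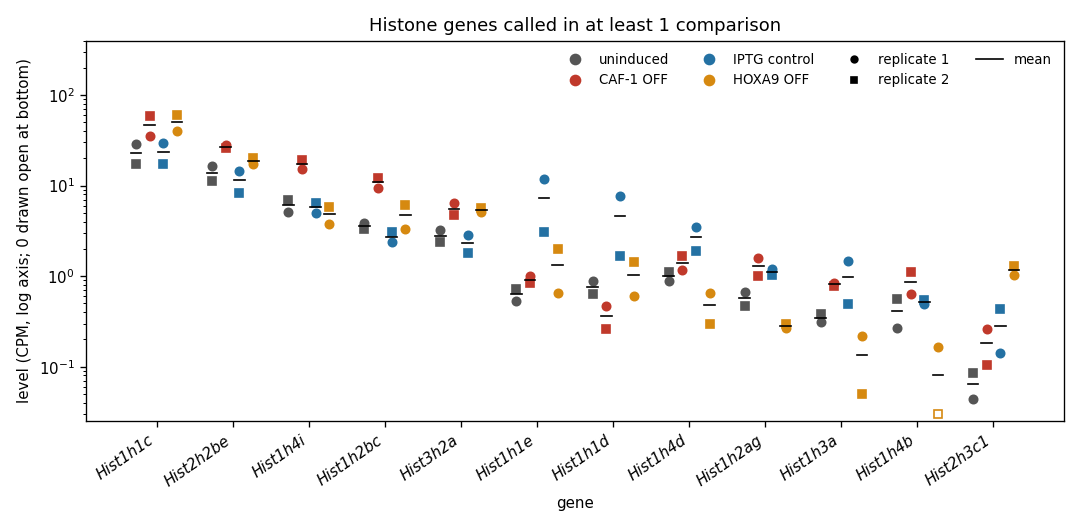
Level (CPM, log axis) of the 12 histone genes called in at least 1 comparison, in each library, with circles for replicate 1, squares for replicate 2 and bars for group means; a library at 0 is drawn open at the bottom. Hist1h4i and Hist1h2bc are highest in CAF-1 OFF, Hist2h3c1 in HOXA9 OFF, and Hist1h1e and Hist1h1d in the IPTG-treated control.

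The same question was asked of cells that differentiate once estradiol is withdrawn. The summed level of the 70 genes was 78.8 and 115 CPM in HOXA9 OFF, above the uninduced libraries, with a mean of 97.1 ± 25.9 CPM (SD, n = 2) and a ratio of means of 1.49. The types went in different directions. H1 was at 53.3 ± 16.5 CPM, 2.07 times the uninduced mean, and H4 at 6.57 ± 1.85, or 0.706 times. Most of the H1 sum was Hist1h1c, at 23.1 CPM on average in uninduced cells and 50.1 in HOXA9 OFF. Hist1h1a, Hist1h1b, Hist1h1d and Hist1h1e had log2 fold changes of -0.76, -0.39, 0.42 and 1.06 and were not called. H2A was at 8.42 ± 1.55, H2B at 25.8 ± 4.85 and H3 at 3.07 ± 1.12 CPM (SD, n = 2).

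Hist1h1c, Hist3h2a and Hist2h3c1 were higher in HOXA9 OFF, which is 3 of 32 (9.38%), where 25.2% of all tested genes were higher. None was lower, where 22.1% of all tested genes were lower (47.2% in either direction). The share of histone genes called was below that of all genes in both directions. Under other settings Hist1h2bj was called lower in 4 alternatives (FDR 0.0378 to 0.0464), among them scaling by library size alone, which left 1 gene higher and 1 lower. Hist1h4b was called lower without HOXA9 OFF replicate 1 (FDR 0.0246).

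Hist1h1c had a log2 fold change of 1.12 over uninduced cells (SE 0.37, FDR 0.0331), and for Hist3h2a it was 0.95 (SE 0.32, FDR 0.0373). Both HOXA9 OFF libraries exceeded both uninduced ones in each gene. Hist2h3c1, an H3 gene of the chromosome 3 cluster, was at 0.0445 and 0.0856 CPM in the uninduced libraries, 0.263 and 0.105 in CAF-1 OFF, 0.141 and 0.429 in the IPTG-treated control and 1.03 and 1.29 in HOXA9 OFF. The uninduced libraries held 3 counts in all and the HOXA9 OFF libraries 45, a ratio of 17.8 with a 95% counting interval of 5.72 to 89.6 (exact conditional binomial, counting error only). The fitted log2 fold change was 4.02 (SE 0.77, FDR 0.00288), a value that depends on the prior for so few counts. Of the exonic bases of Hist2h3c1, 19.0% overlap Hist2h2aa1 on the same strand, and 42.7% of its windows are unique.

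The remaining genes did not pass. Hist1h4b was at 0.267 and 0.556 CPM in the uninduced libraries, 0.632 and 1.10 in CAF-1 OFF, 0.495 and 0.552 in the IPTG-treated control and 0.163 and 0 in HOXA9 OFF (log2 fold change -2.30 in HOXA9 OFF, SE 1.00, FDR 0.0838). Hist1h2bj, an H2B gene with a short annotated transcript, was at 1.20 and 0.984 CPM in the uninduced libraries, 1.11 and 1.05 in CAF-1 OFF, 2.33 and 0.797 in the IPTG-treated control and 0.434 and 0.397 in HOXA9 OFF (-1.38 in HOXA9 OFF, SE 0.58, FDR 0.0733). The HOXA9 OFF libraries were the lowest in both genes.

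The medians of genes with and without a poly(A) signal had different signs. The 10 tested genes with one had a median log2 difference of 0.43, with 3 below 0, and the 22 without one had a median of -0.55, with 17 below 0. The first of these was 0.07 without uninduced replicate 2 and 0.02 without HOXA9 OFF replicate 2. All 32 had a median of -0.24, where all tested genes had 0.01. HOXA9 OFF was higher without overlap in 4 genes (12.5%, against 39.2% of all genes) and lower in 9 (28.1%, against 38.9%). Scaling by library size alone lowered the median of all genes to -0.18 and that of the 22 genes to -0.73. The difference between the classes was not tested. Without HOXA9 OFF replicate 1 the median of the 32 was 0.20 and without replicate 2 it was -0.67, so its sign rests on a single library.

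Scaling by library size alone, or leaving out uninduced replicate 2 or HOXA9 OFF replicate 2, ended the call for Hist1h1c, with FDR up to 0.183. That for Hist3h2a was lost in 10 of 16 alternatives, among them DESeq2 (FDR 0.0517) and the loss of uninduced replicate 1 or 2, CAF-1 OFF replicate 1 or either HOXA9 OFF library. Hist2h3c1 was called in all 16, but the other groups were at no more than 0.429 CPM, so it was tested because of the group in which it is high.

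**Figure D4:**
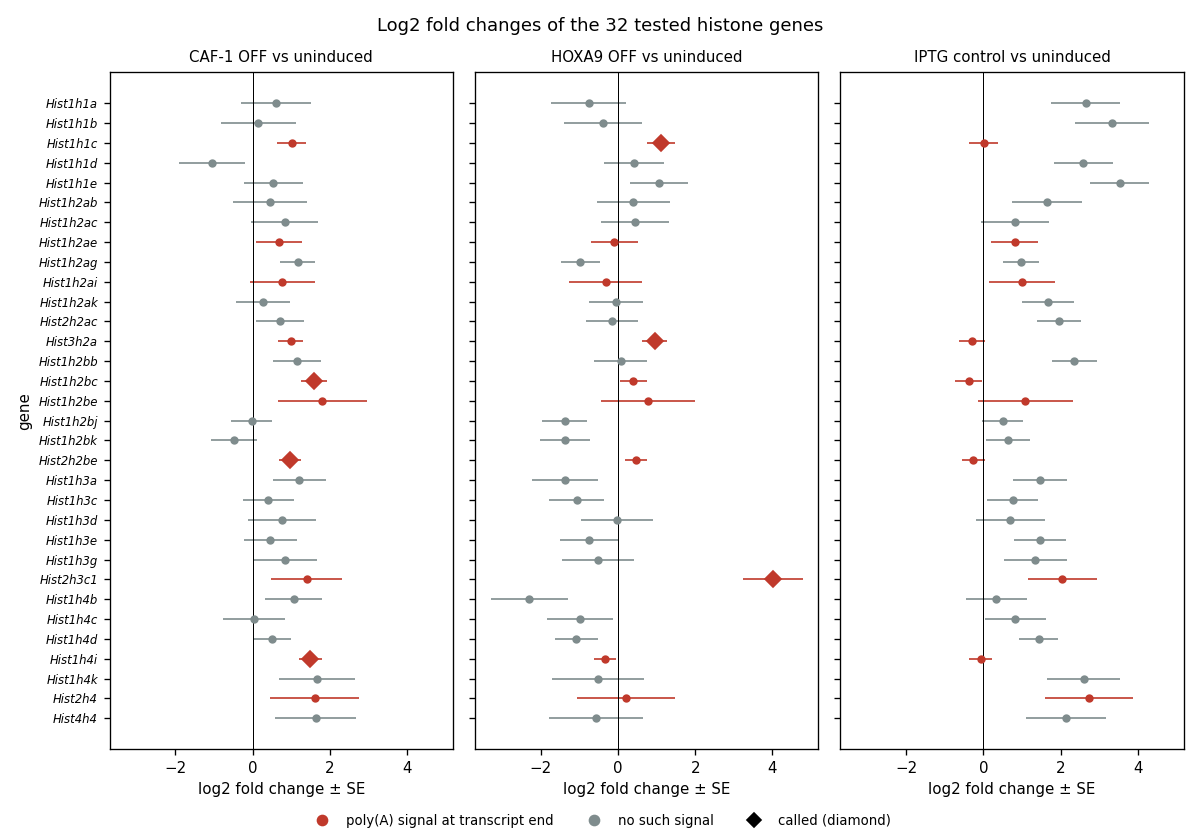
Log2 fold change with its standard error for the 32 tested histone genes in CAF-1 OFF, HOXA9 OFF and the IPTG-treated control, each against uninduced cells, coloured by the annotated transcript end; diamonds mark called genes. In the IPTG-treated control the 22 genes without a poly(A) signal are all above 0 and 4 of the 10 with one are below 0, and no gene is called.

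The IPTG-treated control against uninduced cells compares 48 h of IPTG with 0 h without it. The labels do not say whether the vector or clone differs as well. No histone gene was called, and 0% of all tested genes were. By edgeR 10 histone genes and 100 of all genes had an unadjusted p under 0.05, and DESeq2 called 1, Hist1h1e (FDR 0.0205). The summed histone level was 144 CPM in replicate 1 and 62.2 in replicate 2, so replicate 2 lay within the uninduced range and replicate 1 was above it, at the level of CAF-1 OFF.

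Genes without a poly(A) signal made up most of the difference between these 2 libraries. The 53 such genes, which include the 3 pseudogenes, summed to 81.7 CPM in replicate 1 and 22.8 in replicate 2, against 14.8 and 13.6 in the uninduced libraries, 20.2 and 19.1 in CAF-1 OFF and 7.27 and 13.9 in HOXA9 OFF. The 17 genes with a signal summed to 62.5 and 39.4 CPM, against 59.2 and 42.7 in the uninduced libraries, 98.4 and 124 in CAF-1 OFF and 71.5 and 102 in HOXA9 OFF. For the genes without a signal, replicate 1 was the highest of all libraries in 20 of the 22 tested, and for the genes with a signal in 3 of 10. The same library is the one with 169 CPM of other RNAs without a tail, and the part of that in these values was not tested.

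**Figure D5:**
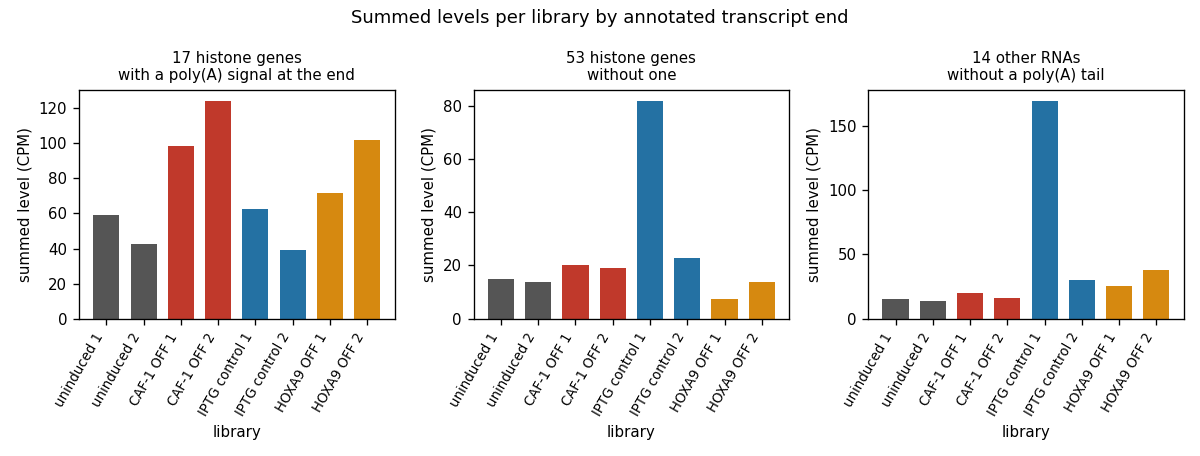
Summed level (CPM) in each library of the 17 histone genes with a poly(A) signal at the annotated transcript end, the 53 without one, and 14 other RNAs that lack a poly(A) tail. CAF-1 OFF replicate 2 is highest in the first panel at 124 CPM, and IPTG-treated control replicate 1 in the others at 81.7 and 169 CPM.

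Among the linker histone genes, Hist1h1e, for H1.4, was at 0.534 and 0.727 CPM in the uninduced libraries, 1.00 and 0.836 in CAF-1 OFF, 11.7 and 3.07 in the IPTG-treated control and 0.651 and 1.98 in HOXA9 OFF (log2 fold change of the control over uninduced cells 3.53, SE 0.76, unadjusted p = 0.00187 and FDR 1 by edgeR). Hist1h1b, for H1.5, was at 0.935 and 0.342, 0.948 and 0.470, 11 and 1.90, and 0.217 and 0.744 CPM in the same order of groups. Hist1h1d, for H1.3, was at 7.63 and 1.66 CPM in the control and 0.597 and 1.44 in HOXA9 OFF, and Hist1h1a, for H1.1, at 7.07 and 1.23 in the control and 0.534 and 0.770 in uninduced cells. In all 4 genes replicate 1 of the control was the highest library, and replicate 2 was also above both uninduced libraries. Hist1h1c, the only tested H1 gene with a poly(A) signal, was at uninduced levels in both.

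Among the 32 tested genes the median log2 difference of the control was 1.21, where all genes had 0, with 1.47 for genes without a signal and 0.41 for genes with one. Without replicate 1 these were 0.39 for all 32, with 20 above 0, 0.62 for genes without a signal and -0.21 for genes with one. The control was higher without overlap in 15 genes (46.9%, against 8.86% of all genes) and lower in 1, Hist1h2bc (3.12%, against 9.46%). Among the tested genes, 7 reached the minimum count only with the control libraries, and 3 of these are among the 15, so the count of 15 is a description of the tested genes.

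CAF-1 OFF against the IPTG-treated control compares libraries of equal IPTG and time. The summed level of the 70 genes was 119 and 143 CPM in CAF-1 OFF and 144 and 62.2 in the control, so the groups overlapped, with a ratio of means of 1.27. By type the ratio was 1.97 for H2B, 1.38 for H4, 1.08 for H1, 0.971 for H2A and 0.615 for H3. All these ratios include control replicate 1, the library that stands apart. Control replicate 2 alone was at 25.2 CPM for H1, 6.62 for H2A, 14.9 for H2B, 3.8 for H3 and 11.7 for H4. CAF-1 OFF was at 38.7 and 60.9, 12.4 and 8.94, 42.2 and 42.3, 5 and 4.6, and 20.4 and 26.5 in the same order. Both CAF-1 OFF libraries were thus above control replicate 2 in every type, H2A and H3 included. Hist1h2bc (log2 fold change 1.98, SE 0.35, FDR 0.0126), Hist1h4i (1.58, SE 0.30, FDR 0.0147), Hist2h2be (1.24, SE 0.29, FDR 0.0277) and Hist3h2a (1.28, SE 0.33, FDR 0.0382) were higher in CAF-1 OFF. These 4 of 32 (12.5%) compare with 9.56% of all tested genes. Hist1h1d (-3.63, SE 0.84, FDR 0.0266) and Hist1h1e (-3.00, SE 0.74, FDR 0.0321) were lower, 2 of 32 (6.25%), where 3.20% of all genes were (12.8% in either direction). The higher genes all carry a poly(A) signal and the lower ones do not.

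Without control replicate 1, the library that stands apart, Hist2h2be alone was called, with a log2 fold change of 1.67 (FDR 0.0475). Hist1h2bc was then at 1.79 (FDR 0.0878), Hist1h4i at 1.38 (FDR 0.0991) and Hist3h2a at 1.62 (FDR 0.0883), while Hist1h1d was at -2.18 (FDR 0.143) and Hist1h1e at -1.76 (FDR 0.178). The log2 fold changes of Hist2h2be and Hist3h2a thus rose, those of Hist1h2bc and Hist1h4i fell slightly, and those of Hist1h1d and Hist1h1e shrank. The median over the 32 genes turned from -0.52 to 0.42 with that library left out. Without CAF-1 OFF replicate 2 no gene was called, without CAF-1 OFF replicate 1 Hist1h2bc and Hist1h4i were, and without control replicate 2 Hist1h1d and Hist1h1e were. Hist1h1e and Hist3h2a also lost their calls without either uninduced library. CAF-1 OFF was higher without overlap in 6 genes (18.8%, against 35.4% of all genes) and lower in 10 (31.2%, against 33.5%). Among the 10 are Hist1h2bb, Hist1h2bk and Hist2h2ac, which reached the minimum count only with the control libraries. The count of 10 thus describes the tested genes.

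CAF-1 OFF was compared directly with HOXA9 OFF, at equal time. 6 genes were higher in CAF-1 OFF (18.8%, where 22.2% of all tested genes were higher) and 1 was lower (3.12%, against 21.4%; 43.5% of all genes in either direction). The 6 were Hist1h4i, Hist1h4b and Hist1h4d of H4, Hist1h2ag of H2A, Hist1h2bc of H2B and Hist1h3a of H3. The lower gene was Hist2h3c1 (log2 fold change -2.62, SE 0.68, FDR 0.0135). Hist1h3a was tested only because of the CAF-1 OFF libraries and Hist2h3c1 only because of those of HOXA9 OFF. Each is higher in that group here, so these shares describe the tested genes.

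Hist1h4i had a log2 fold change of 1.83 (SE 0.30, FDR 0.00157) and was called in all 16 alternatives. Hist1h2ag, of low uniqueness, was at 0.668 and 0.471 CPM in the uninduced libraries, 1.58 and 0.993 in CAF-1 OFF, 1.20 and 1.04 in the IPTG-treated control and 0.271 and 0.298 in HOXA9 OFF (2.15, SE 0.49, FDR 0.00765). Its call was lost without CAF-1 OFF replicate 1 (FDR 0.0648). The HOXA9 OFF libraries were the lowest of the 8.

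For Hist1h4b the CAF-1 OFF libraries held 33 counts and the HOXA9 OFF libraries 3, a ratio of 11.1 with a 95% counting interval of 3.49 to 56.7 (fitted log2 fold change 3.36, SE 0.96, FDR 0.0192). Of its exonic bases 60.9% overlap 4930558J22Rik on the opposite strand, and reads of the partners can be told apart only if the counting used strand. Hist1h3a was at 0.312 and 0.385 CPM in the uninduced libraries, 0.842 and 0.784 in CAF-1 OFF, 1.48 and 0.491 in the IPTG-treated control and 0.217 and 0.0496 in HOXA9 OFF (2.58, SE 0.81, FDR 0.0285). Hist1h4d was at 0.890 and 1.11 CPM in the uninduced libraries, 1.16 and 1.67 in CAF-1 OFF, 3.53 and 1.90 in the control and 0.651 and 0.298 in HOXA9 OFF (1.57, SE 0.54, FDR 0.0401). In all 3 genes both CAF-1 OFF libraries were above both HOXA9 OFF libraries. Hist1h2bc had a log2 fold change of 1.21 (SE 0.33, FDR 0.0168).

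Scaling by library size alone added calls for Hist1h2bj (FDR 0.0449) and Hist2h2be (FDR 0.0484). Several of the calls were thin. DESeq2 called Hist1h2ag, Hist1h2bc, Hist1h4b and Hist1h4i, and gave FDR 0.0644 for Hist1h3a, 0.0807 for Hist1h4d and 0.0652 for Hist2h3c1. Without HOXA9 OFF replicate 2 the calls for Hist1h3a, Hist1h4b, Hist1h4d and Hist2h3c1 were lost, and without CAF-1 OFF replicate 2 those for all but Hist1h2ag and Hist1h4i. Hist1h3a and Hist1h4d also lost theirs without CAF-1 OFF replicate 1 or either uninduced library, Hist1h4d without control replicate 1, and Hist1h2bc without HOXA9 OFF replicate 1. A fit of only the groups compared also ended the calls for Hist1h2bc and Hist1h4d.

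By type, all 7 tested H4 genes, all 8 H2A genes and all 6 H2B genes were above 0, with medians of 1.83, 0.59 and 1.06. The 5 H1 genes had a median of -0.10 and the 6 H3 genes one of 1.28. Over all 32 genes the median was 1.06, where all tested genes had 0.04, and it was 0.91 for genes with a poly(A) signal and 1.15 for those without. CAF-1 OFF was higher without overlap in 19 genes (59.4%, against 40.8% of all genes) and lower in 2 (6.25%, against 37.4%). Among the 19 are Hist1h3a, Hist1h3g and Hist1h4k, which reached the minimum count only with the CAF-1 OFF libraries. Hist2h3c1, among the lower genes, reached it only with the HOXA9 OFF libraries. These counts and medians thus describe the tested genes. The summed H4 level was 3.56 times that of HOXA9 OFF, H2B 1.64 times, H3 1.56 times, H2A 1.26 times and H1 0.934 times.

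The other abundant genes of each type were not called in any of the 5 comparisons with all libraries and settings as above. Hist1h3e, for H3, was at 0.801 and 0.342 CPM in the uninduced libraries, 0.737 and 0.836 in CAF-1 OFF, 2.47 and 0.736 in the IPTG-treated control and 0.271 and 0.397 in HOXA9 OFF. Its log2 fold change over uninduced cells was 0.46 in CAF-1 OFF (SE 0.69, FDR 0.665) and -0.75 in HOXA9 OFF (SE 0.75, FDR 0.416). Both groups overlapped the uninduced libraries.

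Hist1h3c, also for H3, was at 0.712 and 0.599 CPM in the uninduced libraries, 0.684 and 1.05 in CAF-1 OFF, 1.70 and 0.552 in the control and 0.163 and 0.446 in HOXA9 OFF (0.40, SE 0.66, FDR 0.695 in CAF-1 OFF, and -1.07, SE 0.72, FDR 0.237 in HOXA9 OFF). Hist1h4c, for H4, was at 0.579 and 0.856 CPM, 0.263 and 1.20, 1.98 and 0.613, and 0.271 and 0.446 in the same order (0.03, SE 0.80, FDR 0.986, and -0.98, SE 0.86, FDR 0.357). In both, the HOXA9 OFF libraries were below the uninduced ones and those of CAF-1 OFF overlapped them.

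Hist1h2ak, for H2A, was at 0.490 and 0.727 CPM in the uninduced libraries, 0.684 and 0.784 in CAF-1 OFF, 3.04 and 0.920 in the control and 0.326 and 0.843 in HOXA9 OFF (0.27, SE 0.70, FDR 0.814, and -0.05, SE 0.71, FDR 0.959). Hist1h2ae, an H2A gene with a poly(A) signal, was at 0.668 and 0.599 CPM, 0.948 and 1.10, 1.70 and 0.552, and 0.434 and 0.744 (0.69, SE 0.59, FDR 0.437, and -0.10, SE 0.61, FDR 0.905). Hist1h2ae was higher in CAF-1 OFF than in uninduced cells without overlap. Hist1h1b had log2 fold changes of 0.15 in CAF-1 OFF (SE 0.98, FDR 0.929) and -0.39 in HOXA9 OFF (SE 1.01, FDR 0.767), and its groups overlapped. Against the IPTG-treated control it was lower in CAF-1 OFF without overlap (-3.17, SE 0.95, FDR 0.0549), a difference called in 6 alternatives, among them DESeq2 (FDR 0.00722). The control libraries were at 11 and 1.90 CPM, so the size of this difference rests largely on control replicate 1.

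The 17 factors that make, cut or destroy histone mRNA were examined as a list. In CAF-1 OFF 1 was higher than in uninduced cells (5.88%, where 10.5% of all tested genes were) and none lower. Zfp473, which encodes a zinc finger protein of the U7 complex, was at 2.71 and 3.25 CPM in the uninduced libraries and 8.69 and 7.06 in CAF-1 OFF (log2 fold change 1.40, FDR 0.0205). Slbp, for the stem-loop binding protein, was at 168 and 161 CPM in the uninduced libraries, 159 and 165 in CAF-1 OFF, 170 and 167 in the IPTG-treated control and 157 and 122 in HOXA9 OFF, and was not called in any comparison. Npat, for the coactivator of histone transcription, was at 52.2 and 56.5 CPM in the uninduced libraries, 57.0 and 54.3 in CAF-1 OFF and 40.9 and 34.9 in HOXA9 OFF (-0.52 in HOXA9 OFF, FDR 0.00666, short of 1.5-fold).

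In HOXA9 OFF 4 of the 17 factors were lower (23.5%, where 22.1% of all tested genes were) and 1 was higher (5.88%, where 25.2% were), so the share lower was close to that of all genes. Lsm11, a U7 protein (-0.78, FDR 0.00381), Cstf2, a cleavage factor (-1.25, FDR 3.62e-05), Coil, for the Cajal body protein coilin (-1.10, FDR 0.000339), and Zcchc11 (-0.94, FDR 0.000363) were lower. Zcchc6, like Zcchc11 a uridyltransferase that marks RNA for decay, was higher (1.35, FDR 3.8e-05). The list's median was -0.27 in HOXA9 OFF and -0.02 in CAF-1 OFF, where that of all genes was 0.01 in both. U7 RNA itself was at most 0.157 CPM in any library and was not tested.

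S phase genes with polyadenylated mRNA gave another view of the same cells. Of 18 (Pcna, the Mcm genes, Rrm1, Rrm2, Tyms and others), none was called in CAF-1 OFF against uninduced cells, where 14.0% of all tested genes were in either direction (5 of the 18 had an unadjusted p under 0.05 by edgeR), and 13 were lower in HOXA9 OFF (72.2%, where 22.1% of all tested genes were), with medians of -0.16 and -0.74. Their summed level was 6220 and 5500 CPM in the uninduced libraries, 5120 and 4920 in CAF-1 OFF, 5980 and 5540 in the control and 3880 and 2930 in HOXA9 OFF. The HOXA9 OFF libraries were the lowest, and in CAF-1 OFF, where the summed histone level was 2.01 times that of uninduced cells, the sum of the S phase genes was below the uninduced values.

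The cell type also differed between groups. The 8 progenitor markers summed to 14800 and 10800 CPM in the uninduced libraries, 16300 in each CAF-1 OFF library, 14200 and 11100 in the control, and 8250 and 5980 in HOXA9 OFF. The members did not move alike in HOXA9 OFF: Cd34, Kit, Ctsg and Flt3 were called lower, Ms4a3 was called higher (log2 fold change 1.19, SE 0.31, FDR 0.0117), and Mpo, Elane and Prtn3 were not called, at -0.76, 0.70 and 0.43. The 8 neutrophil markers summed to 66.5 and 49.0 CPM in the uninduced libraries, 1150 and 2030 in CAF-1 OFF, 70.6 and 49.1 in the control and 8100 and 5510 in HOXA9 OFF; 5 of them were called higher in CAF-1 OFF, where 10.5% of all tested genes were, and 8 in HOXA9 OFF, where 25.2% were. The 7 macrophage markers measured summed to 27.7 to 53.8 CPM in the uninduced libraries, 50.5 and 79.4 in CAF-1 OFF and 1010 and 1650 in HOXA9 OFF. Megakaryocyte markers summed to 190 and 219 CPM in CAF-1 OFF and 129 and 192 in HOXA9 OFF, against 23.9 and 25.5 in uninduced cells, with Gp1bb at 0 throughout. Erythroid markers stayed between 1.98 and 6.69 CPM. Lymphocyte markers summed to 90.8 and 109 CPM in the uninduced libraries, 136 and 91.0 in CAF-1 OFF and 4.88 and 9.42 in HOXA9 OFF. Most of that sum was Ebf1, at 88.1 and 107 CPM in the uninduced libraries and 1.14 and 1.19 in HOXA9 OFF, while Cd79a was higher in CAF-1 OFF (2.82, FDR 0.00689) and in HOXA9 OFF (1.46, FDR 0.0158) than in uninduced cells, with Cd3e, Cd3g and Cd8a at 0 in every library. The part of these in the histone values was not tested.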

How the data were processed

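Libraries were made from total RNA with a directional NEBNext kit. How RNA was selected, the strand setting of the counting and the annotation version are not given in the sources used here. Reads had been aligned by the authors to mm9 with STAR and counted per gene with HTSeq, as the methods of the study state. The deposited values are raw counts per gene symbol, 1 file per library, not normalized or pooled. The 5 HTSeq summary rows were kept out of library sizes and tests, and their shares are given where they bear on a library. HTSeq does not assign reads that align to several places, which lowers near-identical copies.

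Groups came from the labels. The counts went into edgeR 4.0.16 (R 4.3.3): filterByExpr on the groups (13080 genes), TMM scaling, 1 quasi-likelihood fit over all 8 libraries without covariates, and Benjamini-Hochberg adjustment over all genes tested. Calls needed FDR under 0.05 and at least 1.5-fold. CPM use TMM-scaled library sizes. Standard errors were derived from the F statistics, and the biological coefficient of variation was 18.9%. With 2 libraries per group, an exact permutation of a single value cannot give a p below 0.333, so sums were not tested. Stem-loops, transcript ends, 50-base uniqueness and overlaps were read from the mm9 genome with GENCODE M1. The fits were tested on simulated data.

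The histone genes, the other lists and the tests were chosen with earlier results of these data known. Full values are given for genes called in any of 5 comparisons and for the 3 of highest mean CPM per type. Alternatives were DESeq2 1.42.0 and its size factors, library size only, no filter, only the groups compared, a replicate block, other thresholds and each library left out. Comparisons that share uninduced or CAF-1 OFF libraries are not independent.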

Additional observations from a re-analysis of the deposited data

How the results depend on the processing

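No called gene changed direction under any alternative. Leaving out 1 library at a time gave 0 to 3 called histone genes for CAF-1 OFF against uninduced cells (3 with all libraries), 1 to 4 for HOXA9 OFF against uninduced cells (3), 0 to 7 for CAF-1 OFF against the IPTG-treated control (6), 2 to 9 for CAF-1 OFF against HOXA9 OFF (7), and 0 throughout for the control against uninduced cells. At an FDR under 0.01 and at least 2-fold the counts were 0, 1, 0 and 2 in that order. DESeq2 called 1 gene in the control against uninduced cells and 4 in CAF-1 OFF against HOXA9 OFF. Scaling by library size alone moved the median of all genes to -0.18 in HOXA9 OFF against uninduced cells and to 0.27 in CAF-1 OFF against HOXA9 OFF. The summed level in CAF-1 OFF of the 53 genes without a poly(A) signal was 20.8 CPM by library size alone, and that of H2B was 44.7 by library size and 42.1 by DESeq2 size factors; the alternatives for genes with and without a signal were chosen after seeing the data. The cause of these moves was not tested.

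Same-numbered libraries did not deviate together in every pair of groups (correlations over tested genes from -0.04 to 0.48), so the numbers were not taken as a pairing. With the replicate number as a block, 4 histone genes were called in CAF-1 OFF against uninduced cells (Hist3h2a added, FDR 0.0417), 3 in HOXA9 OFF against uninduced cells, 0 in the control, 7 in CAF-1 OFF against the control (Hist1h1b added, FDR 0.04) and 7 in CAF-1 OFF against HOXA9 OFF.

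Most histone genes had too few counts to be tested, and copies with few unique windows can be counted only in part. The annotated ends say nothing of the ends used in these cells.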

Other observations

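The promoters of the histone genes were searched as well, on both strands, in windows of 250 bases before to 50 bases after the start in RefSeq (GRCm38.p6). RefSeq matched 69 of the 70 genes, and 61 had a promoter window. CCAAT, the box bound by NF-Y, was present in all 6 H1, 17 H2A, 16 H2B and 10 H3 promoters and in 3 of 12 H4 promoters (25%), where 37.92% of 27025 promoters hold it. TATAAA was present in 66.7% of H1, 64.7% of H2A, 50% of H2B, 40% of H3 and 66.7% of H4 promoters, against 14.16% of all. The octamer ATTTGCAT was present in 7 of 17 H2A (41.2%) and 6 of 16 H2B (37.5%) promoters and in none of H1, H3 or H4, against 1.75% of all. A match describes the letters of the window and not binding.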
